A study of Mus musculus with 14 samples.

Results

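Retinoic acid is made, taken up, bound, sensed and broken down by a small group of proteins, and 9 of their genes were followed here in fetal mouse ovaries in which the gene of the nuclear receptor COUP-TFII (Nr2f2) was targeted for deletion. The genes were Aldh1a1, Aldh1a2, Aldh1a3, Cyp26a1, Cyp26b1, Stra6, Crabp1, Crabp2 and Rarb, chosen by symbol from the 18193 genes with a probe set of their own on the array. Together they had 11 probe sets, 3 of them for Aldh1a3. Their mean signal over the 14 arrays put 8 of the 9 genes above the level used for testing, and the remaining gene, Cyp26a1, was followed in a second test of all probe sets.

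The arrays fell into 4 groups of whole ovaries: 4 of E16.5 knockouts, 4 of E16.5 controls, 3 of E14.5 knockouts and 3 of E14.5 controls, with the arrays of a group labelled as biological replicates. The model carried a tamoxifen-inducible Cre from the Wt1 locus (WT1-CreERT2) and floxed COUP-TFII alleles (flox/flox), on a mixed background of C57BL/6, B6129SF1/J and Swiss Webster. All dams, those of controls included, received tamoxifen at 2 mg per 10 g of body weight on E11.5 and on E12.5. The sources used here do not state the genotype of the controls, including whether they carried Cre, or whether ovaries were pooled. Wt1 is known to be expressed in somatic cells of the fetal gonad. Each value below is a MAS5 signal, a linear probe set intensity scaled by the authors to a common mean per array.

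Cells make all-trans retinoic acid from retinol in consecutive oxidations, of which the ALDH1A dehydrogenases carry out the last. STRA6 takes up retinol, CRABP1 and CRABP2 hold retinoic acid in the cytoplasm, CYP26 enzymes break it down, and retinoic acid receptors (RARs), paired with RXRs, bind DNA and switch on targets that include Rarb and Cyp26a1 themselves. In the fetal mouse ovary, germ cells enter meiosis while in the testis CYP26B1 removes retinoic acid, and Stra8, a gene of meiotic entry, responds to retinoic acid, although how far ovarian germ cells need it is debated.

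RAR and RXR pairs bind direct repeats of a 6-letter half-site. A search of RefSeq promoter windows (GRCm38.p6, 250 bases before to 50 after the gene start) for 4 half-sites (AGGTCA or else AGTTCA among those that open with AG, GGGTCA or else GGTTCA among those that open with GG) in direct repeats spaced by 5 bases found a repeat in 2 of the 7 genes with a window, Rarb and Cyp26a1. Either strand was allowed. Across all 32851 windows, 0.0974% held such a repeat, and by gene it was found in 31 of 27025. Spacings of 1 and 2 bases, found in 0.222% and 0.268% of windows, were in none of the 11 windows of the set. These windows are shown because they carry the repeat of the only 2 genes of the set in which it was found, with the repeat in capitals and the gene strand written 5′ to 3′ up to the base before the start. The Rarb window (chr14:16575477-16575726, minus strand) reads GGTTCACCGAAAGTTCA at bases -53 to -37. The Cyp26a1 window (chr19:37697558-37697807, plus strand) holds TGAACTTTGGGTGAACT at bases -32 to -16, which on the other strand is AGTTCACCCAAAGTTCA.
Rarb: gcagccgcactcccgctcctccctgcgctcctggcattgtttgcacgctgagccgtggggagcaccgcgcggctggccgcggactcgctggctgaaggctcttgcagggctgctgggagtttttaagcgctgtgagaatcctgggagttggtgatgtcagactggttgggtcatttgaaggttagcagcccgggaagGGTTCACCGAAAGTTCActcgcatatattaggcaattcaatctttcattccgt
Cyp26a1: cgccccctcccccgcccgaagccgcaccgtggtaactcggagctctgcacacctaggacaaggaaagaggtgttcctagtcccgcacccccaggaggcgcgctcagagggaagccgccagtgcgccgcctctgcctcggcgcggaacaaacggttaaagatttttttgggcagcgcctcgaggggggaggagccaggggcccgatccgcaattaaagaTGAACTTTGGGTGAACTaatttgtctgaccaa
The windows of the meiotic genes Stra8 and Rec8 and of Nr2f2 held no repeat of these letters. No measurement of binding was made, so a match describes the letters alone.

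Nr2f2, the targeted gene, had signals of 2460, 2260, 3360 and 2050 by its brightest probe set on E16.5 knockout arrays, against 3820, 4950, 4310 and 4250 on E16.5 control arrays. All knockout arrays lay below all controls, with a log2 change of -0.79 ± 0.22 (SE, limma adjusted p = 0.0753). It passed in 5 of 26 alternative settings, with log2 changes of -1.24 to -0.64 over all of them (limma adjusted p = 0.0157 to 0.55). At E14.5 the signals were 155, 252 and 267 in knockouts and 217, 493 and 422 in controls (log2 change -0.67 ± 0.25, limma adjusted p = 0.444), and the groups overlapped. Whether this probe set lies in the deleted part of the gene was not tested. Wt1, which carries the recombinase, had a log2 change of -0.37 ± 0.13 at E16.5 (limma adjusted p = 0.143), with all knockout arrays below all controls. Technical measures followed the groups. The bioB hybridization control ranged over 4030 to 16400 in E16.5 knockouts, with knockout arrays 1 and 4 highest, against 3810 to 4530 in E16.5 controls, and over 1240 to 1490 and 1210 to 1280 in E14.5 knockouts and controls. The log2 difference between the 3′ and 5′ ends of Gapdh was 0.94 to 1.63 in E16.5 knockouts, against 1.67 to 1.83 in E16.5 controls, and it was below 0 on every E14.5 array. Stage and these array measures therefore cannot be told apart. At E16.5 their part in the knockout differences was followed only by leaving out knockout arrays 1 and 4 and by a fit with the Gapdh difference as a covariate, both chosen after seeing the data. At E14.5 knockout arrays 1 and 2 stood apart from array 3 for many germ cell genes, with values given beside the meiotic entry genes. Their bioB signals, 1410 and 1490, were above all E14.5 controls, while that of array 3, 1240, lay within them. The part of this array measure in the E14.5 values was not tested.

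Among the enzymes that make retinoic acid, Aldh1a3 rose in E16.5 knockouts. Its brightest probe set had signals of 373, 409, 466 and 401 in knockouts, against 270, 222, 215 and 270 in controls. The lowest knockout array stood above the highest control. This gave a log2 change of 0.72 ± 0.16 (SE, limma adjusted p = 0.0383), or 1.65-fold, with group means of 412 ± 38.9 and 244 ± 30.0 (SD, n = 4 each). Aldh1a3 was the 1 gene of the 8 tested that passed at E16.5, where 1.42% of all 12406 genes passed. Counted by unadjusted p under 0.05 there were 2 of the 8 (Aldh1a3 and Crabp1), against 18.3% of all genes.

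The other Aldh1a3 probe sets were dimmer and did not pass. The middle one by mean signal had 97.2, 116, 204 and 165 in E16.5 knockouts and 68.9, 82.4, 102 and 76.3 in E16.5 controls, a log2 change of 0.68 ± 0.26 (adjusted p = 0.295 in the limma test of all probe sets). The dimmest had 83.9, 68.3, 64.9 and 121 in knockouts and 51.6, 48.2, 46.0 and 52.9 in controls, a log2 change of 0.58 ± 0.23 (adjusted p = 0.305 in that test). It kept knockouts wholly above controls, while the middle one had 1 knockout array below the highest control. All 3 probe sets thus had positive log2 changes of similar size at E16.5, and in the test of all 45037 probe sets the brightest had an adjusted p of 0.0669 in limma. No probe set of the 11 passed there, where 0.473% of all probe sets passed, while 5 of the 11 had an unadjusted p under 0.05, against 12.2% of all probe sets. These 5 were all 3 of Aldh1a3 and those of Crabp1 and Cyp26a1, so that 1 gene was counted 3 times. Knockout and control arrays did not overlap for 3 of the 11, the brightest and dimmest of Aldh1a3 and that of Cyp26a1, against 7.81% of all probe sets.

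The Aldh1a3 call was near the threshold. It was kept in 14 of 26 alternative settings and lost in 12, with log2 changes of 0.63 to 0.98 and adjusted p-values in limma of 0.0169 to 0.184. Leaving out any 1 of the 4 E16.5 control arrays ended it, as did leaving out E16.5 knockout array 1, 3 or 4. Without knockout arrays 1 and 4 together the log2 change was 0.81 (limma adjusted p = 0.184), and with the Gapdh covariate it was 0.98 (limma adjusted p = 0.0584). Aldh1a3 lies on chromosome 7, as does Nr2f2.

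At E14.5, Aldh1a3 had 252, 330 and 274 in knockouts and 279, 183 and 169 in controls by its brightest probe set. Control array 1 stood within the knockouts, so the groups overlapped, with a log2 change of 0.44 ± 0.19 (limma adjusted p = 0.532). The dimmest Aldh1a3 probe set had 17.5, 8.10 and 5.78 in E14.5 knockouts and 19.6, 22.5 and 17.2 in E14.5 controls, so its log2 change of -0.46 ± 0.27 was opposite in sign to that of the brightest (adjusted p = 0.699 in the limma test of all probe sets). Those signals lie far below the filter level, the middle probe set had a log2 change of -0.000467, and no difference in direction between probe sets is shown. The knockout effect at E16.5 minus that at E14.5 was 0.29 ± 0.25 in log2 units for the brightest and did not pass (limma adjusted p = 0.751).

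Aldh1a2, the enzyme that makes most retinoic acid in the early embryo, and Aldh1a1, which is abundant in the adult liver, did not pass in knockouts at either stage. Aldh1a2 had 3270, 2700, 3120 and 2970 in E16.5 knockouts, against 2710, 2900, 2890 and 2800 in E16.5 controls. At E14.5 it had 1830, 2560 and 3130 in knockouts and 2550, 2960 and 3120 in controls. Groups overlapped at both stages, E14.5 knockout array 1 being the lowest of all, with limma log2 changes at E16.5 of 0.09 ± 0.13 (adjusted p = 0.753) and at E14.5 of -0.23 ± 0.15 (adjusted p = 0.707).

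Aldh1a1 had 5350, 4670, 6130 and 5580 in E16.5 knockouts and 6400, 4300, 7080 and 5720 in E16.5 controls. At E14.5 its signals were 8030, 8590 and 8970 in knockouts and 8450, 6620 and 8170 in controls. All knockout values at E16.5 lay within the range of the controls, and the limma log2 changes at E16.5 were -0.10 ± 0.13 (adjusted p = 0.740) and at E14.5 0.15 ± 0.15 (adjusted p = 0.842).

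**Figure D1:**
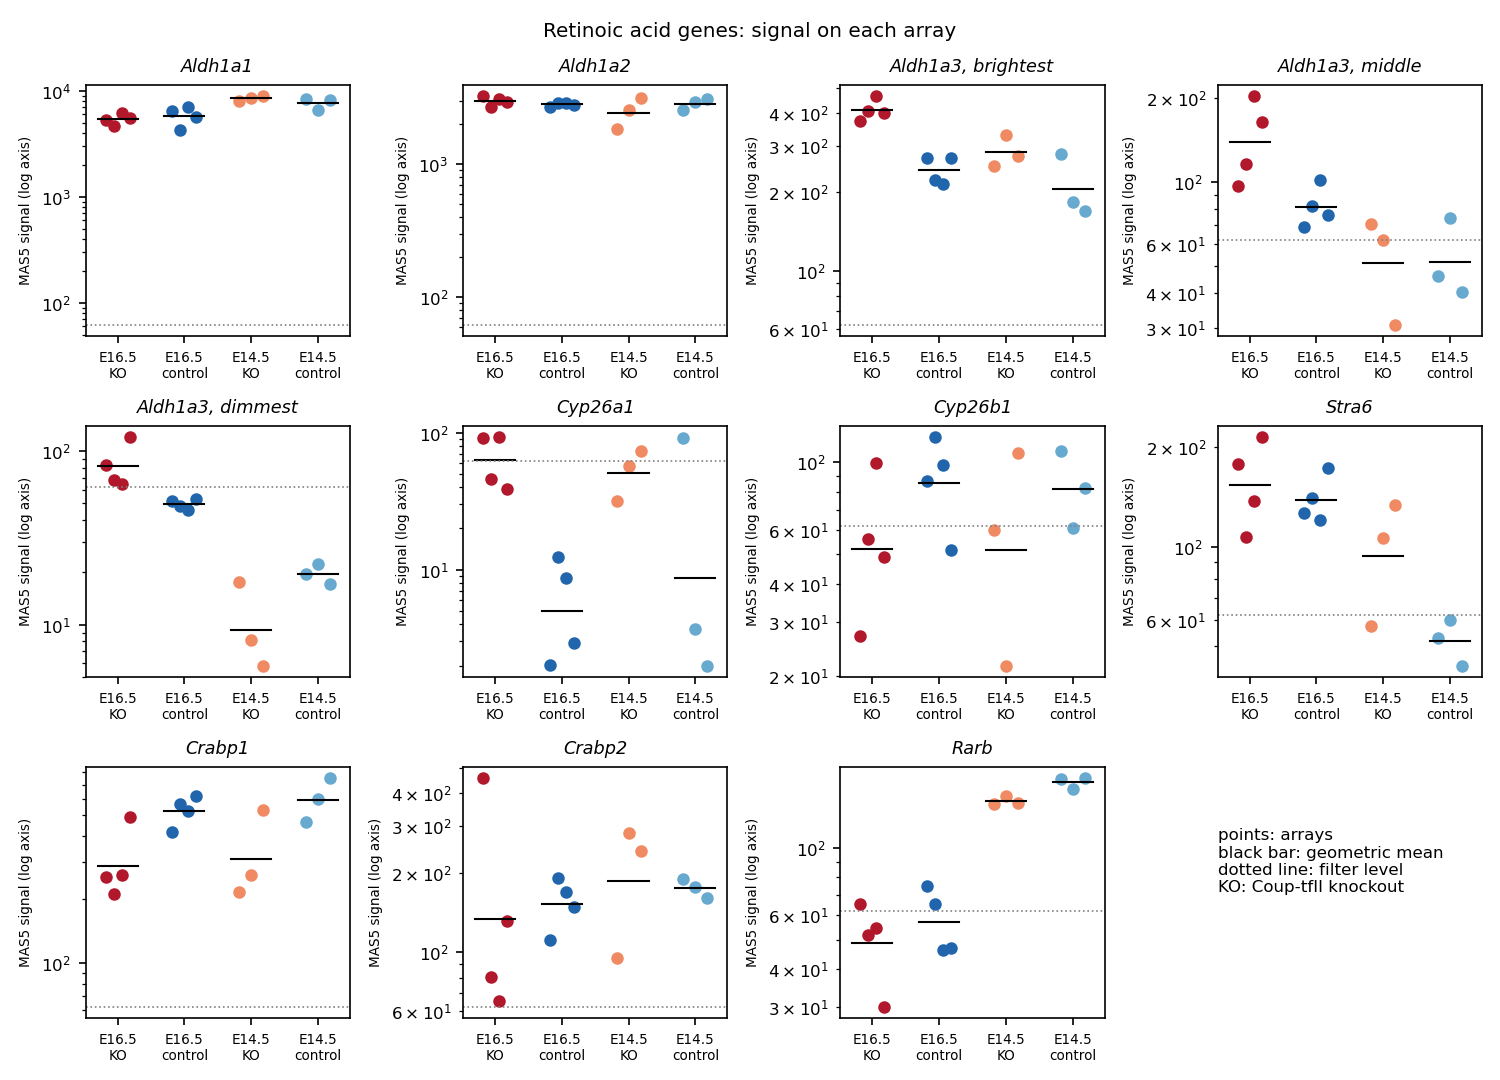
MAS5 signal (log axis, a scale of its own in each panel) of the 11 probe sets on each of the 14 arrays, in E16.5 knockouts, E16.5 controls, E14.5 knockouts and E14.5 controls, with black bars at geometric means and a dotted line at the filter level of about 62.0. The brightest Aldh1a3 probe set runs over 373 to 466 in E16.5 knockouts and 215 to 270 in E16.5 controls, Cyp26a1 over 39.1 to 93.1 and 2.02 to 12.3, and Rarb over 30.1 to 74.8 on the 8 E16.5 arrays and 139 to 169 on the 6 E14.5 arrays.

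Of the enzymes that break retinoic acid down, Cyp26a1 had higher but dim signals in E16.5 knockouts and did not pass. Its signals were 92.0, 46.1, 93.1 and 39.1 in E16.5 knockouts, against 2.02, 12.3, 8.66 and 2.92 in E16.5 controls. The groups did not overlap, and all the controls lay far below the filter level of about 62.0. The log2 change was 1.85 ± 0.44 (adjusted p = 0.0744 in the limma test of all probe sets). Signals this low set a fold change largely by the 16 added before taking logs, and the log2 change was 0.88 with 64 added and 3.35 with 1 added.

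The E16.5 Cyp26a1 difference passed in 2 of 23 alternatives, with the E16.5 arrays alone (limma adjusted p = 0.0158) and without E14.5 control array 1 (limma adjusted p = 0.00564). That array was the 1 control with a high Cyp26a1 signal. At E14.5, Cyp26a1 had 31.8, 57.6 and 73.1 in knockouts, against 91.8, 3.69 and 1.99 in controls. The other 2 controls lay below all knockouts and control array 1 above them, so the log2 change of 1.01 ± 0.51 did not pass (adjusted p = 0.637 in the limma test of all probe sets).

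Cyp26b1, the CYP26 enzyme that keeps retinoic acid low in the fetal testis, was also dim and did not pass. It had 27.0, 56.1, 99.6 and 48.9 in E16.5 knockouts and 87.0, 121, 98.3 and 51.7 in E16.5 controls. At E14.5 it had 60.1, 21.6 and 107 in knockouts and 109, 60.9 and 82.1 in controls. Single arrays spread over more than the difference between the groups, and the limma log2 changes at E16.5 were -0.56 ± 0.36 (adjusted p = 0.429) and at E14.5 -0.48 ± 0.42 (adjusted p = 0.794).

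Among the uptake and binding proteins, Crabp1 had the largest negative log2 changes of the tested genes at both stages, although neither passed. Crabp1 had 257, 212, 261 and 492 in E16.5 knockouts, against 416, 566, 527 and 616 in E16.5 controls. Knockout array 4 lay within the controls and the other 3 lay below them all. The log2 change was -0.82 ± 0.26 (limma adjusted p = 0.122), with means of 306 ± 126 in knockouts and 531 ± 84.9 in controls (SD, n = 4 each).

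At E14.5 Crabp1 had 217, 261 and 530 in knockouts, against 466, 598 and 753 in controls. Knockout arrays 1 and 2 were below all controls and array 3 was among them. The log2 change was -0.90 ± 0.30 (limma adjusted p = 0.414). Without E14.5 knockout array 3 it was -1.27 ± 0.28 and passed (limma adjusted p = 0.0357), and that was the 1 setting of 25 in which Crabp1 passed at E14.5. At E14.5, 0 of the 8 tested genes passed in limma, where 0.0403% of all genes passed, and 3 of the 8 (Crabp1, Stra6 and Aldh1a3) had an unadjusted p under 0.05, against 8.55% of all genes. Of the 11 probe sets, 0 passed in limma, against 0.0333% of all probe sets, and 3 had an unadjusted p under 0.05, against 8.22%.

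Stra6 had 177, 107, 137 and 214 in E16.5 knockouts and 126, 140, 120 and 172 in E16.5 controls (log2 change 0.14 ± 0.24, limma adjusted p = 0.798). At E14.5 it had 57.8, 106 and 133 in knockouts and 52.9, 60.1 and 43.7 in controls (log2 change 0.70 ± 0.28, limma adjusted p = 0.492). At E14.5 knockout arrays 2 and 3 lay above the controls and array 1 within them, whereas at E16.5 the knockouts spread to both sides of the controls.

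Crabp2 had 458, 80.2, 65.4 and 131 in E16.5 knockouts, against 111, 191, 169 and 148 in E16.5 controls. Knockout array 1, one of the 2 with a high bioB signal, was far above the others. At E14.5 Crabp2 had 95.0, 284 and 242 in knockouts and 190, 176 and 160 in controls. Both comparisons overlapped, with limma log2 changes at E16.5 of -0.14 ± 0.42 (adjusted p = 0.895) and at E14.5 of 0.10 ± 0.49 (adjusted p = 0.976).

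Rarb, the receptor that is itself a retinoic acid target, did not pass in knockouts at either stage. It had 65.2, 51.8, 54.7 and 30.1 in E16.5 knockouts and 74.8, 65.6, 46.2 and 46.9 in E16.5 controls (log2 change -0.17 ± 0.21, limma adjusted p = 0.707). At E14.5 its signals were 139, 147 and 140 in knockouts and 168, 155 and 169 in controls. Every E14.5 knockout array was below every control, by a small margin, with a log2 change of -0.19 ± 0.25 (limma adjusted p = 0.877). Groups without overlap were found for 1 of the 8 genes at E16.5 (Aldh1a3), against 10.4% of all genes, and for 1 of the 8 at E14.5 (Rarb), against 12.7%. Cyp26a1 and Rarb, whose promoter windows both hold a repeat spaced by 5 bases, did not pass in knockouts at either stage. The Rarb log2 changes were smaller than their SE. The Cyp26a1 signals in E16.5 controls lay far below the filter level, and at E14.5 the Cyp26a1 groups overlapped. The signs are therefore not compared between these genes, and the part of the repeat in their values was not tested.

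**Figure D2:**
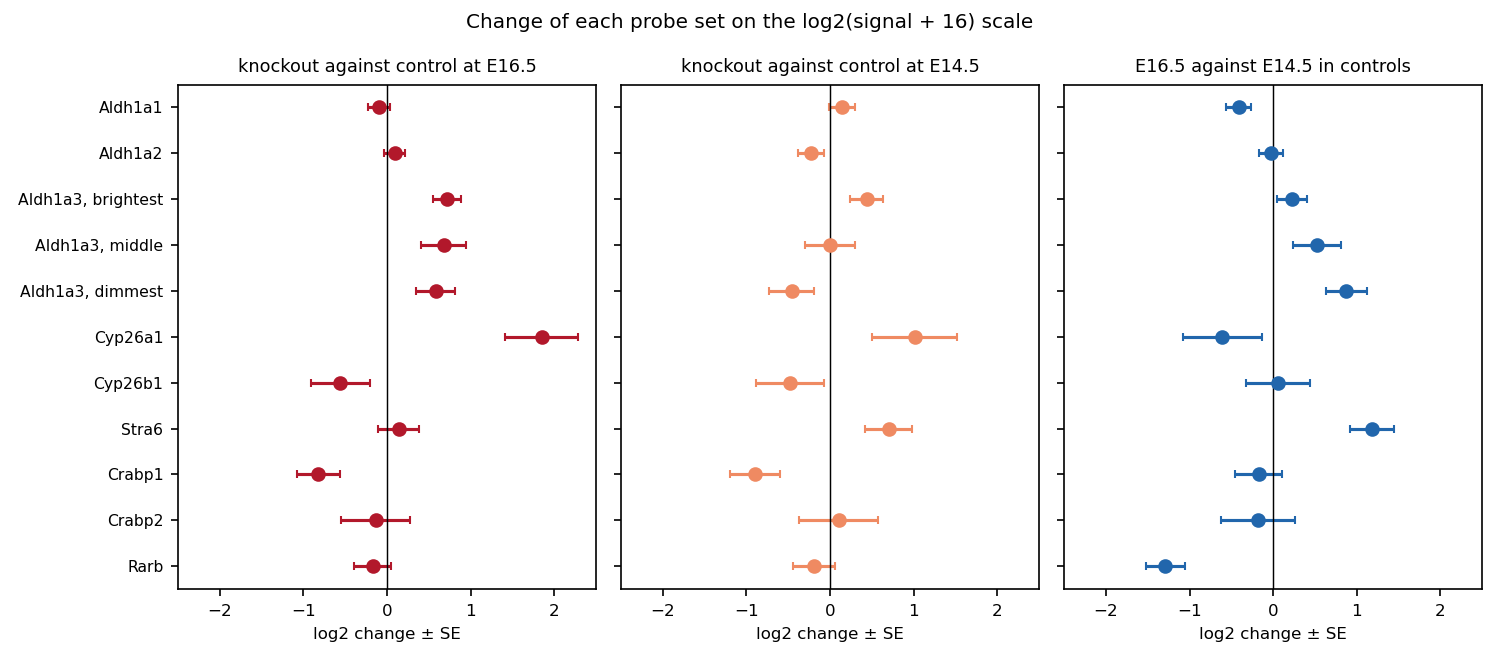
Log2 change (± SE) of the 11 probe sets in the test of all probe sets, for knockout against control at E16.5, knockout against control at E14.5 and E16.5 against E14.5 in controls. Positive values are higher in knockouts, or at E16.5 in the right panel: Cyp26a1 has 1.85 ± 0.44 and the Aldh1a3 probe sets 0.58 to 0.72 at E16.5, Crabp1 has -0.82 and -0.90 at the 2 stages, and Rarb has -1.29 with stage.

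Over the 8 tested genes, the median log2 change was -0.12 at E16.5 and -0.04 at E14.5, against 0.05 and 0.03 over all genes. In the test of whether the knockout effect differed with stage, 0 of the 8 passed in limma and 0 had an unadjusted p under 0.05, where 0 of 12406 genes passed and 8.91% had an unadjusted p under 0.05. Of the 11 probe sets, 0 passed in limma and 1 had an unadjusted p under 0.05, against 7.69% of all probe sets, of which 0 passed. That 1 was the dimmest of Aldh1a3 (1.04 ± 0.35, limma adjusted p = 0.559).

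With stage, 3 of the 8 tested genes changed in controls, Stra6 higher and Rarb and Aldh1a1 lower at E16.5, where 64.4% of all genes passed. Some of the 8 were above the filter level through 1 stage or by a small margin, since Rarb averaged 58.4 ± 14.2 in E16.5 controls (SD, n = 4), Stra6 averaged 52.2 ± 8.23 in E14.5 controls (SD, n = 3) and Cyp26b1 lay near the filter level throughout. Rarb had 46.2 to 74.8 in E16.5 controls, against 155 to 169 in E14.5 controls, with a log2 change of -1.29 ± 0.23 (limma adjusted p = 0.000109). No E16.5 array of either genotype reached the E14.5 level of Rarb. In knockouts the Rarb change was -1.28 ± 0.23 (limma adjusted p = 0.000139), and both Rarb calls were kept in every alternative run.

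Stra6 had 120 to 172 in E16.5 controls, against 43.7 to 60.1 in E14.5 controls. The groups did not overlap, with a log2 change of 1.19 ± 0.26 (limma adjusted p = 0.000792) that passed in all 23 alternatives. In knockouts the Stra6 log2 change was 0.62 ± 0.26 (limma adjusted p = 0.0492), the stages overlapped, and the call was lost in 18 of 24 alternatives. For Stra6 the stage change in knockouts minus that in controls was -0.56 ± 0.37 (limma adjusted p = 0.673).

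Aldh1a1 fell in both genotypes. It had 4300 to 7080 in E16.5 controls, against 6620 to 8450 in E14.5 controls, a log2 change of -0.41 ± 0.14 (limma adjusted p = 0.0183) with overlap. E16.5 knockouts had 4670 to 6130, against 8030 to 8970 in E14.5 knockouts, with no overlap (log2 change -0.65 ± 0.14, limma adjusted p = 0.000787). The call in controls was lost in 4 of 24 alternatives, with quantile normalization (log2 change -0.10, limma adjusted p = 0.573) and without E14.5 control array 1 (limma adjusted p = 0.0805), E14.5 control array 3 (limma adjusted p = 0.0683) or E16.5 control array 2 (limma adjusted p = 0.0652). That in knockouts was lost with quantile normalization (-0.33, limma adjusted p = 0.0641).

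Aldh1a3 rose with stage in knockouts by every probe set. The brightest had 373 to 466 in E16.5 knockouts, against 252 to 330 in E14.5 knockouts (log2 change 0.51 ± 0.18, limma adjusted p = 0.0193). The dimmest had 64.9 to 121 at E16.5 and 5.78 to 17.5 at E14.5, a log2 change of 1.92 ± 0.25, and the middle one had 1.20 ± 0.29 (adjusted p = 3.33e-06 and 0.00169 in the limma test of all probe sets). The E14.5 signals of the dimmest lie near the 16 added before taking logs, and its log2 change was 0.985 with 64 added and 2.99 with 1 added, so the sizes are not compared between probe sets. The brightest lost its call in knockouts in 5 of 25 alternatives, with quantile normalization (0.20, limma adjusted p = 0.337), with median centring (0.18, limma adjusted p = 0.409) and without E14.5 knockout array 1 (limma adjusted p = 0.0798), E14.5 knockout array 3 (limma adjusted p = 0.0522) or E16.5 knockout array 3 (limma adjusted p = 0.054). In controls the brightest had a log2 change of 0.22 ± 0.18 and did not pass (limma adjusted p = 0.276), and it was below 0 with quantile normalization (-0.13) and with median centring (-0.12). Aldh1a3 passed in controls with the mean of its probe sets (0.54, limma adjusted p = 0.00979) and without E14.5 control array 1 (0.43, limma adjusted p = 0.0436). The dimmest passed in controls too, with 46.0 to 52.9 at E16.5 and 17.2 to 22.5 at E14.5 (log2 change 0.88 ± 0.25, adjusted p = 0.0063 in the limma test of all probe sets).

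In knockouts 4 of the 8 tested genes passed with stage, Aldh1a3 and Stra6 higher and Rarb and Aldh1a1 lower, where 60.8% of all genes passed. By probe set, 4 of 11 passed in controls and 5 of 11 in knockouts, against 52.5% and 51% of all probe sets. With each array centred on its median, the median of all genes moved to -0.43 in controls, against -0.09 as deposited, and the calls in controls were 2257 higher and 6251 lower, against 3541 higher and 4452 lower as deposited. In that scaling Rarb (-1.63) and Stra6 (0.84) kept their calls in controls, Aldh1a1 had -0.76, and Aldh1a2 passed as lower (-0.36, limma adjusted p = 0.0405). The 2 stage comparisons share their arrays with the knockout comparisons.

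In the rest of the pathway, knockout calls were at 0 in each list. Of 4 tested receptor genes, 0 passed in knockouts at either stage, against 1.42% of all genes at E16.5 and 0.0403% at E14.5. In controls 2 of the 4 passed with stage, against 64.4% of all genes. Rara, a ligand-bound receptor, had 182 to 306 in E16.5 controls, against 31.4 to 91.3 in E14.5 controls, and rose by 1.66 ± 0.28 in log2 units (limma adjusted p = 4.8e-05). Rxra, an RXR partner, had 381 to 471 at E16.5 and 181 to 217 at E14.5 in controls and rose by 1.09 ± 0.18 (limma adjusted p = 4.87e-05). The Rara and Rxra stages did not overlap in either genotype. Rarg and Rxrb did not pass in controls as scaled by the authors, and 2 of the 4 receptors passed as lower after median centring. At E16.5 the smallest p among the receptors in knockouts was that of Rarg, with 358, 149, 151 and 315 in knockouts and 143, 149, 112 and 123 in controls (log2 change 0.72 ± 0.25, limma adjusted p = 0.150). Knockout arrays 1 and 4 were the high ones.

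Of 9 tested genes of retinoid metabolism and transport, 0 passed in knockouts at either stage, with medians of 0.19 at E16.5 and 0.31 at E14.5. The shares of all genes that passed were the same 1.42% and 0.0403%. In controls 2 rose and 1 fell with stage, 3 of 9 against 64.4% of all genes, and 2 rose and 4 fell after median centring. Dhrs3, which reduces retinaldehyde back to retinol, had 1540 to 2250 in E16.5 controls, against 782 to 877 in E14.5 controls (log2 change 1.09 ± 0.17, limma adjusted p = 2.33e-05). Ttr, the carrier of retinol-binding protein in blood, rose by 3.06 ± 0.90 in controls (limma adjusted p = 0.00646), with signals as far apart as 257 and 2900 among E16.5 controls. Rdh11, a retinal reductase, fell by 0.62 ± 0.17 in controls (limma adjusted p = 0.00437). Among these genes Adh1, an alcohol dehydrogenase that can oxidise retinol, had the smallest p in E16.5 knockouts (log2 change 0.76 ± 0.23, limma adjusted p = 0.112), and Ttr in E14.5 knockouts (2.71 ± 0.96, limma adjusted p = 0.421). Ttr had 1960, 1270 and 82.6 in E14.5 knockouts and 120, 34.4 and 116 in E14.5 controls, so that knockout arrays 1 and 2 were the high ones.

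Of 6 tested response genes, 0 passed in knockouts at either stage, against 1.42% of all genes at E16.5 and 0.0403% at E14.5. In controls 2 rose and 3 fell with stage, 5 of 6 against 64.4% of all genes. Rarres2 had 977 to 1170 in E16.5 controls, against 287 to 308 in E14.5 controls (log2 change 1.82 ± 0.24, limma adjusted p = 3.24e-06), and Tgm2, a transglutaminase, rose by 1.51 ± 0.17 (limma adjusted p = 7.29e-07). The homeobox gene Meis1 fell by 1.09 ± 0.13 (limma adjusted p = 1.67e-06). These genes went both ways, as the set itself did. Meis2 had the smallest p in E16.5 knockouts, with 687, 684, 976 and 591 in knockouts and 470, 617, 382 and 322 in controls (log2 change 0.71 ± 0.21, limma adjusted p = 0.098), and Rarres2 in E14.5 knockouts (0.56 ± 0.25, limma adjusted p = 0.543).

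**Figure D3:**
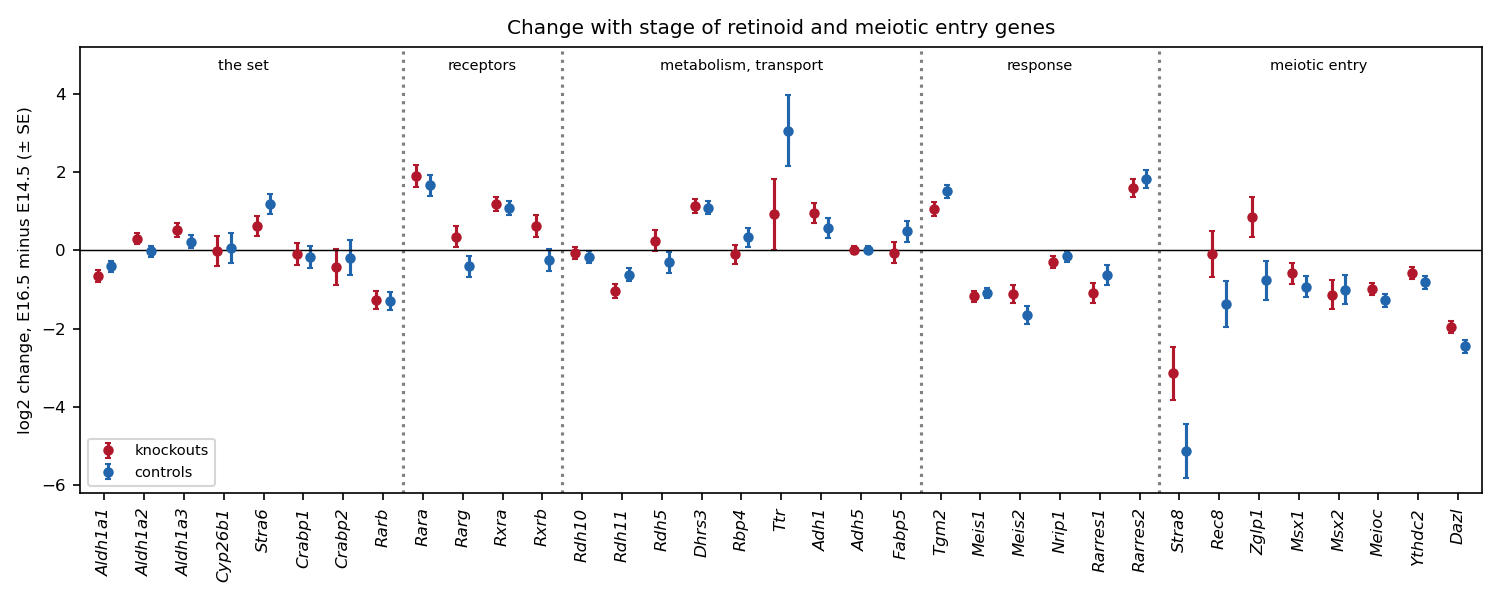
Log2 change at E16.5 against E14.5 (± SE) of the 8 tested genes of the set, 4 receptors, 9 genes of retinoid metabolism and transport, 6 response genes and 8 meiotic entry genes, in knockouts (red, left of each pair) and controls (blue). Rarb, the Meis genes and most meiotic entry genes lie below 0 and Rara, Rxra, Dhrs3 and Rarres2 above it in both genotypes, with Stra8 at -3.15 in knockouts and -5.13 in controls.

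Meiotic entry was read from 8 genes, and none passed in knockouts at either stage. Of all genes, 1.42% passed at E16.5 and 0.0403% at E14.5. Stra8, required for entry, had 1170, 566 and 5680 in E14.5 knockouts, against 8170, 5350 and 5440 in E14.5 controls. Knockout arrays 1 and 2 lay far below the controls and array 3 within them. The log2 change was -1.98 ± 0.73 (limma adjusted p = 0.432), and without knockout array 3 it was -2.90 (limma adjusted p = 0.0395). That was the 1 setting of 25 in which Stra8 passed at E14.5, with log2 changes of -2.90 to -1.26 over all of them. At E16.5 Stra8 had 178, 78.0, 60.7 and 701 in knockouts and 139, 158, 99.8 and 298 in controls, with overlap (log2 change 0.01 ± 0.63, limma adjusted p = 0.996).

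The same 2 E14.5 knockout arrays were low for several meiotic entry genes and for Crabp1. Rec8, a meiotic cohesin, had 200, 185 and 1310 in E14.5 knockouts and 1110, 665 and 582 in controls (log2 change -0.998 ± 0.62, limma adjusted p = 0.691). Zglp1, a transcription regulator of the oogenic fate, had 55.2, 53.0 and 372 in knockouts and 213, 204 and 187 in controls (log2 change -0.81 ± 0.54, limma adjusted p = 0.712). For both genes array 3 was above every control and arrays 1 and 2 below every control. Msx1, a homeobox gene downstream of BMP, had 298, 445 and 905 in knockouts and 724, 1080 and 1070 in controls (log2 change -0.91 ± 0.28, limma adjusted p = 0.339). Dazl, an RNA-binding protein of germ cells, had 12600, 9690 and 17800 in knockouts, against 17700, 16400 and 18700 in controls (log2 change -0.44 ± 0.17, limma adjusted p = 0.442). Without knockout array 3, Msx1 (-1.34, limma adjusted p = 0.00611) and Dazl (-0.67, limma adjusted p = 0.0303) passed, whereas Rec8 (limma adjusted p = 0.0784) and Zglp1 (limma adjusted p = 0.0669) did not. That was the 1 setting of 25 in which Msx1 or Dazl passed at E14.5. Over all settings the log2 changes were -1.34 to -0.56 for Msx1 and -0.67 to -0.23 for Dazl. Without knockout array 1 the Crabp1 log2 change at E14.5 was -0.65 (limma adjusted p = 0.614), and without knockout array 2 it was -0.78.

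The 2 arrays stood apart beyond meiotic entry. Of 9 listed genes of early germ cells and pluripotency, 5 were tested. At E14.5, 0 of the 5 passed in knockouts, against 0.0403% of all genes. All 5 had a negative log2 change, with a median of -1.69, against 0.03 over all genes. The filter used the mean of all 14 arrays, so high E14.5 signals helped such genes to be tested. Sox2 had 1220, 451 and 446 in E14.5 controls, and 13.5 to 22 in E16.5 controls. The median is therefore only a description. Sall4, a transcription factor of early germ cells with the smallest p among the 5, had 37.1, 51.8 and 638 in E14.5 knockouts and 1070, 289 and 465 in E14.5 controls (log2 change -2.03 ± 0.70, limma adjusted p = 0.414). For each of the 5 genes knockout arrays 1 and 2 lay below all controls and array 3 lay within them. The part of these lower germ cell genes in the Crabp1 values at E14.5 was not tested.

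Msx2, Meioc and Ythdc2 completed the list. Msx2 had 79.9, 144 and 214 in E14.5 knockouts, below all controls at 255, 225 and 269 (log2 change -0.80 ± 0.40, limma adjusted p = 0.609). Meioc and Ythdc2, partners in the RNA regulation of meiosis, had log2 changes of -0.25 ± 0.17 (limma adjusted p = 0.714) and -0.26 ± 0.18 (limma adjusted p = 0.710) at E14.5. All 8 genes had a negative log2 change at E14.5, with a median of -0.81, against 0.03 over all genes. Of 19 tested meiotic prophase genes, 14 were negative and 5 positive at E14.5, with a median of -0.18. None of these 19 passed, against 0.0403% of all genes. At E16.5 the signs of the 8 entry genes were mixed, 5 positive and 3 negative, with a median of 0.03. Msx1 had 391, 282, 281 and 352 in E16.5 knockouts and 468, 521, 484 and 485 in E16.5 controls (log2 change -0.57 ± 0.24, limma adjusted p = 0.216). It was the 1 gene of the 8 with no overlap at E16.5, against 10.4% of all genes.

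**Figure D4:**
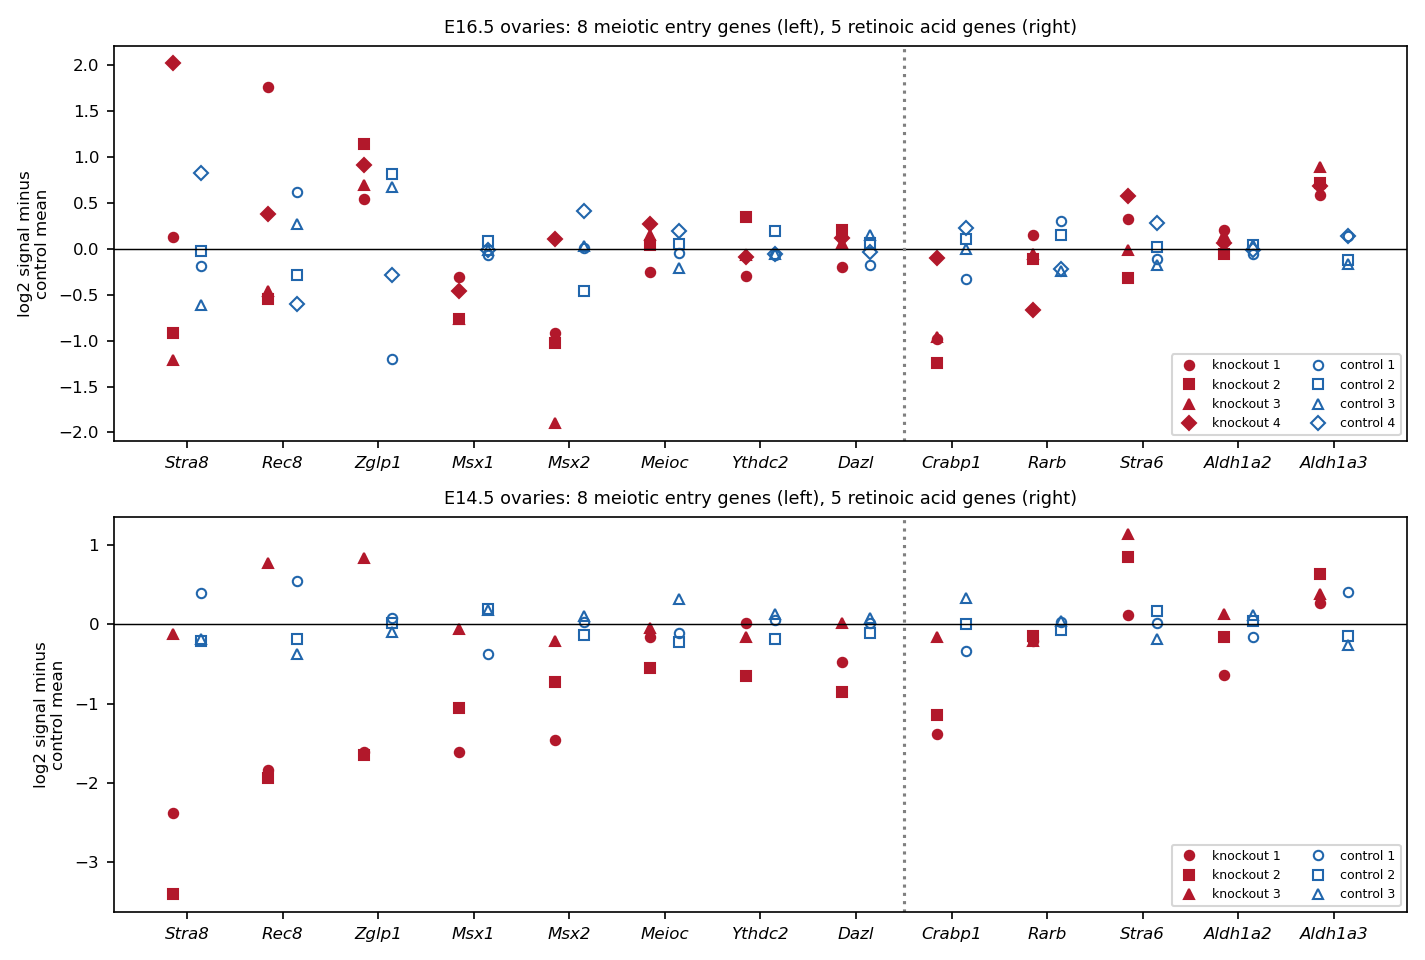
Log2 signal of each array minus the control mean of its stage (y axis) for the 8 meiotic entry genes and 5 genes of the set, at E16.5 (top) and E14.5 (bottom), with knockouts as filled red and controls as open blue symbols. At E14.5 knockout arrays 1 and 2 lie low for Stra8 (-2.39 and -3.42), Rec8, Zglp1, Msx1 and Crabp1 (-1.39 and -1.14), while array 3 lies at -0.12 for Stra8 and -0.16 for Crabp1.

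The synthesis enzymes are given beside Stra8 for each E14.5 knockout array. Aldh1a2 had log2 deviations from the control mean of -0.64, -0.16 and 0.13 on arrays 1, 2 and 3, and Stra8 of -2.39, -3.42 and -0.12. Aldh1a1 had signals of 8030, 8590 and 8970 on these arrays. Array 3 was thus the highest for all 3 genes, while arrays 1 and 2 were in the other order for Stra8. Aldh1a3 deviated by 0.28, 0.64 and 0.39 on arrays 1, 2 and 3, above the control mean throughout. Rarb was 139, 147 and 140 and Stra8 1170, 566 and 5680 on the same arrays. Cyp26b1, of the breakdown enzymes, had 60.1, 21.6 and 107, in the order of Stra8, with signals near the filter level. The relation of any of these genes to Stra8 was not tested. Germ cell markers, 8 genes, summed to 46000 to 58200 in E14.5 knockouts, against 54200 to 65200 in E14.5 controls, and whether a share of germ cells or the RNA of each cell differs cannot be told apart in whole ovaries.

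With stage, 7 of the 8 meiotic entry genes fell in controls, where 35.9% of all genes fell, and Zglp1 did not pass. The fall of Rec8 was lost in 10 of 24 alternatives (limma adjusted p up to 0.168), among them leaving out any 1 E14.5 control array or E16.5 control array 2, 3 or 4. That of Msx2 was lost in 3 of 22, without E14.5 control array 1 or 3 or E16.5 control array 2 (limma adjusted p up to 0.0729), and that of Msx1 in 1 of 24, with the mean of all its probe sets (limma adjusted p = 0.0612). Stra8 had 99.8 to 298 in E16.5 controls, against 5350 to 8170 in E14.5 controls, a log2 change of -5.13 ± 0.68 (limma adjusted p = 4.4e-06). In knockouts 5 of 8 fell, against 33.8% of all genes, and Stra8 had a log2 change of -3.15 ± 0.68 (limma adjusted p = 0.000712). The knockout effect did not differ with stage past the threshold for any of the 8 in limma, with Stra8 at 1.98 ± 0.97 (limma adjusted p = 0.570). Germ cell markers summed to 14300 to 20400 in E16.5 controls, against 54200 to 65200 in E14.5 controls. Of these 8 markers, 7 passed as lower and 1, Tdrd1, as higher, against 35.9% and 28.5% of all genes. Dazl is in both lists, so the sum is not independent of the meiotic entry genes. The part of these lower germ cell sums in the falls of the meiotic entry genes and of Rarb was not tested.

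Markers of other cell types moved with genotype at E16.5 beside the Aldh1a3 difference. Coelomic and surface epithelium markers, 9 without Aldh1a2, summed to 11900 to 17100 in E16.5 knockouts, against 9470 to 10900 in E16.5 controls. Of the 10 tested with Aldh1a2, 2 passed as higher in limma, where 0.967% of all genes passed as higher. Adrenal cortex markers summed to 780 to 1110 in knockouts and 315 to 423 in controls. Of these 5, 3 were tested and 2 passed as higher, against the same 0.967%. Pre-granulosa markers summed to 19400 to 21600 in knockouts, below 23600 to 24900 in controls. Of the 8, 0 passed in limma, against 1.42% of all genes. Sertoli cell markers summed to 808 to 887 in knockouts and 648 to 772 in controls, 2 of the 6 being below the filter level. Endothelial markers summed to 3370 to 4290 in knockouts and 2930 to 3300 in controls, but single genes went both ways. Of the 6, 1 passed as higher and 1 as lower, with 4 positive and 2 negative log2 changes. Plvap averaged 600 in knockouts and 250 in controls, and Tek 363 and 591. None of these ranges overlapped between the genotypes, whereas those of germ cells, mesonephric epithelium, interstitial mesenchyme, macrophages and smooth muscle did. A sum follows its brightest genes, so overlapping sums do not show that a list was unchanged. Of 6 tested mesenchyme genes 1 passed as lower, with 4 negative and 2 positive log2 changes. Pdgfra averaged 1300 in E16.5 knockouts and 3080 in E16.5 controls. Of 6 macrophage genes 1 passed as higher and all 6 were positive. Of 3 tested smooth muscle genes 1 passed as higher and all 3 were positive. The part of the marker differences in those of Aldh1a3, Cyp26a1 and Crabp1 was not tested. At E14.5 the sums that did not overlap were those of coelomic and surface epithelium, at 11100 to 15200 in knockouts and 8770 to 9020 in controls, of adrenal cortex, at 736 to 998 and 385 to 683, and of smooth muscle, at 3820 to 5370 and 2880 to 3460.

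The genes whose pattern was most like each member, by Pearson correlation of log2 values over the 14 arrays after subtracting each stage mean, were read as a description, since the arrays share genotype and array measures. Crabp1 was most like Msx1 (r = 0.885) of the meiotic entry list, then B3gnt5 (r = 0.884) and Apcdd1 (r = 0.863). Aldh1a3 was most like Sgsh (r = 0.960), Acaa2 (r = 0.955) and Unc119 (r = 0.952). Stra6 went with Mmp19, Kmt5a and Coq8b (r = 0.886 to 0.889) and Cyp26b1 with Mettl8, Rbm46 and Hdac2 (r = 0.886 to 0.895). For Aldh1a1 the closest were Arnt2, Ogfod1 and Maip1 (r = 0.750 to 0.900), and for Aldh1a2 they were Atp6v1g2, Ptprg and Sbno2 (r = 0.861 to 0.889). Crabp2 was closest to Rtl8c, Glipr2 and Nans (r = 0.839 to 0.867) and Rarb to Rab30, Mterf3 and 5530601H04Rik (r = 0.841 to 0.861). No gene of the set was among the 3 most like another gene of the set.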

How the data were processed

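RNA of 14 fetal mouse ovary samples was hybridized to Affymetrix arrays after amplification with a 3' IVT kit, per the labels' protocols. The deposited values are linear intensity values, made with MAS5 in the Expression Console software of Affymetrix per the submitters' processing notes, and every array had a trimmed mean of 500 (2% left out at each end). Detection calls were not used here.

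Signals were taken as log2(signal + 16), which understates the changes of dim genes. The array holds 45037 probe sets that are not controls, 34945 with 1 gene symbol, 932 with several and 9160 with none listed. The brightest probe set stood for each gene. Genes with a mean above the 40th percentile (signal of about 62.0), 12406 of 18193, entered a 4-group linear model over all 14 arrays (limma, version 3.58.1, lmFit and eBayes with trend; R 4.3.3), with two-sided tests, Benjamini-Hochberg adjustment over all genes and a threshold of 0.05. A second fit took all probe sets without a filter. The steps were tested on simulated data. The number of arrays limits precision, and p-values measure the spread between these arrays, since separate animals or litters are not stated beyond the words biological replicates. Figures used matplotlib 3.10.9.

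Named genes were the 9 members, the meiotic entry genes, Nr2f2, Wt1, up to 3 passing genes of each other list (or the 1 of smallest p) and the 3 most alike per member; the text gives the leading ones. Members and lists were chosen with earlier results of these data known. Some same-numbered arrays of a stage deviated together and others did not (correlations -0.00217 to 0.43 at E16.5 and -0.0478 to 0.161 at E14.5, with 3 of 7 knockout arrays closest to their own number). Since not every pair was over 0.1 and the labels give the numbers no shared litter or batch, arrays were not treated as paired. Promoter windows and gene names came from RefSeq (GRCm38.p6), with a window for 7 of 9 members. Alternatives changed the added constant, scaling, filter, probe set choice, spread model, arrays and block.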

Additional observations from a re-analysis of the deposited data

How the results depend on the processing

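No value past the threshold changed sign in any alternative. Of the 8 tested genes, the E16.5 knockout count of 1 became 0 with median centring, with no filter (9 genes), without knockout arrays 1 and 4 together and with the Gapdh covariate (the last 2 chosen after seeing the data), and was 0 to 1 with 1 array left out. The E14.5 count of 0 was 0 to 1, the 1 being Crabp1 without E14.5 knockout array 3. The stage count of 4 in knockouts became 2 with quantile normalization, with median centring and with the 60th percentile filter (4 genes tested), and was 2 to 4 with 1 array left out, the 2 arising without E14.5 knockout array 1 or E16.5 knockout array 3. The stage count of 3 in controls became 1 with that filter. By probe set, the E16.5 count of 0 became 2 with the compared arrays alone and was 0 to 2 with 1 array left out (2 without E14.5 control array 1), and the E14.5 count was 0 to 1 (1 without E14.5 knockout array 3). The cause of these shifts was not tested, apart from the fewer genes tested. With the replicate block, Aldh1a3 at E16.5 did not pass (limma adjusted p = 0.0551), Crabp1 at E16.5 did (limma adjusted p = 0.0374), and Aldh1a2 passed with stage in knockouts (limma adjusted p = 0.0327); the count in that comparison was 5. Crabp2 passed as lower with stage in knockouts without E16.5 knockout array 1 (-0.97, limma adjusted p = 0.0173). Signals below about 62.0, as for Cyp26a1, Cyp26b1 and the dimmer Aldh1a3 probe sets, limit what can be said of those genes.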
